A study of Caenorhabditis elegans with 2 samples.

Results

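The F-box, Skp1-related and cullin genes of Caenorhabditis elegans, which encode parts of cullin-RING ubiquitin ligases or related proteins, made up 278 of the 14958 genes named by the probes of the arrays. They are the genes whose symbol starts with skr- (16 genes), cul- (5), fbxa- (133), fbxb- (84) or fbxc- (40), each read by probes that the platform annotation gives to a single gene, 303 probes in all. A value on both arrays was available for 276 of them. The fbxa genes fbxa-23 and fbxa-178, both pseudogenes, had a value on array 1 only and entered no comparison. Genes were chosen by name and not by a cut-off on their values, though earlier results of these data were known.

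The study hybridised glp-4 messenger RNA, taken at the second larval stage (L2), against a common messenger RNA pool of mixed wild-type worms on 2-colour spotted arrays. There were 2 arrays, array 1 for preparation 1 and array 2 for preparation 2 of the glp-4 L2 RNA in channel 2, with the reference in channel 1 of both. glp-4 mutants are known for a germline that fails to proliferate at the restrictive temperature. The sources used here do not give the allele, the growth temperature, the make-up of the reference or whether the preparations were separate cultures. Both genotype and stage separate the channels, and their parts cannot be told apart. The p-values below cover only the spread between 2 hybridisations, possibly a technical one, and the number of arrays limits the precision.

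Each value is a log2 ratio of the channels. No dye or direction is stated. The sample descriptions put glp-4 before the reference, and the ratio was read as likely glp-4 L2 over reference because the medians of the yolk genes (-7.16 and -6.80 on the arrays 1 and 2) and of 30 major sperm protein genes (-3.97 and -2.86) lay below 0 on both arrays. Those lists are therefore no finding, and every sign below would turn if the reading were wrong. Of 15 germ granule and germ cell genes measured, 14 lay below 0 on both arrays, with medians of -3.20 and -2.95, and 6 of 7 eggshell genes did so, with medians of -5.27 and -4.84. The 5 adult cuticle genes had medians of 0.06 and -0.02. No intensities were used, so no gene can be called absent, and a ratio does not tell fewer cells of a type from less RNA per cell. The part of the germline in the ratios of the ligase genes was not tested.

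Cullin-RING ligases attach ubiquitin to proteins, often to mark them for the proteasome. In the SCF class, a cullin scaffold (CUL-1) holds a RING protein at one end and a Skp1-related adaptor (SKR in worms) at the other, and the adaptor binds an F-box protein that picks the substrate. Nematodes carry an unusually large number of F-box genes. Most are known from sequence alone. Those named fbxa, fbxb and fbxc are grouped by the domain that follows the F-box, and they lie in chromosomal clusters of young duplicates. By contrast, the cullins are conserved across animals.

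The skr and cul genes had medians below 0 on both arrays, and the medians of the F-box prefixes lay between -0.12 and 0.43. The median log2 ratio of the 16 skr genes was -1.34 on array 1 and -0.69 on array 2. The 5 cul genes had medians of -0.28 and -1.78. The medians were 0.20 and 0.37 for 131 fbxa genes, -0.12 and 0.43 for 84 fbxb genes, and 0.04 and 0.14 for 40 fbxc genes. Over all 14777 genes measured on both arrays they were 0.10 and 0.02. The skr median was thus 1.54 below the fbxa median on array 1 and 1.06 below it on array 2. The order of skr and cul turned between arrays, with skr minus cul at -1.06 and 1.09. With 2 arrays and no second group of samples, an exact two-sided test over arrays cannot give a p under 0.5, so differences between prefixes are given without a test.

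**Figure D1:**
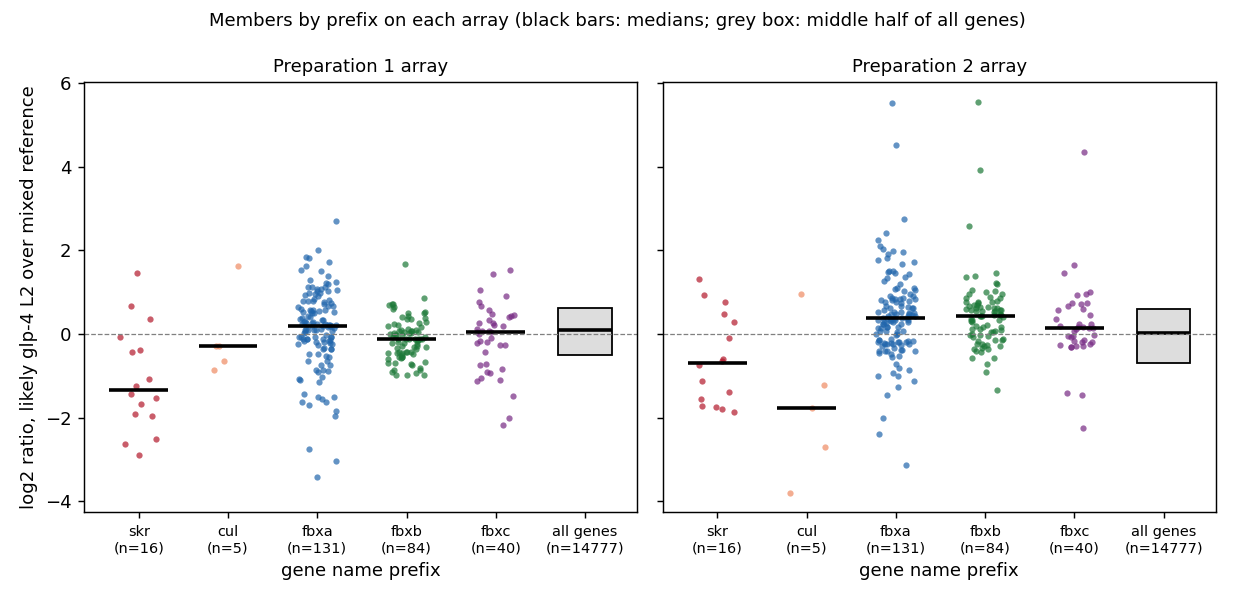
Log2 ratio (y axis) of each member on array 1 (left) and array 2 (right) by gene name prefix, 1 point a gene, black bars at the medians, and a grey box for the middle 50% of all 14777 genes. The skr points have their median at -1.34 and -0.69, and the fbxa, fbxb and fbxc medians lie between -0.12 and 0.43.

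By limma with Benjamini-Hochberg adjustment over all genes, 3 of the 276 members differed from the reference at an adjusted p under 0.05. fbxa-206 and fbxa-215 were lower in glp-4 L2 and fbxa-72 was higher. Over all genes, 1.5% passed as lower and 0.365% as higher, so a count of 3 members is near the background of 1.86% in either direction. No skr, cul, fbxb or fbxc gene passed. At an unadjusted limma p under 0.05 there were 9 skr genes lower and 1 higher, 2 cul genes lower and 1 higher, 9 fbxa genes lower and 17 higher, 0 fbxb genes lower and 1 higher, and 3 fbxc genes lower and 2 higher. For fbxa this was 6.87% as lower and 13% as higher. The same unadjusted level held 10.9% of all genes as lower and 7.78% as higher. A plainer count, without a test, takes the genes that were 2-fold or more away from the reference on each array. It took in 6 of 16 skr genes as lower, or 37.5%, against 7.35% of all genes, and 1 skr gene as higher, against 4% of all genes. It took in 6 fbxa genes as lower (4.58%) and 7 as higher (5.34%), 3 fbxc genes as lower (7.5%) and 0 as higher, and neither a cul nor an fbxb gene.

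Among the Skp1-related adaptors, the lowest were skr-8 and skr-9, which are known for binding CUL-1 and for a need in larval growth. skr-8 had log2 ratios of -2.90 and -1.86 on the arrays 1 and 2, a mean of -2.38 ± 0.73 (SD, n = 2 here and below), or 5.21-fold lower (limma adjusted p = 0.0718). skr-9 had -2.51 and -1.80, a mean of -2.16 ± 0.51, or 4.45-fold lower (limma adjusted p = 0.0782). Both sat far below the middle of all genes on each array without passing the test as deposited. With each array centred on its median, skr-8 passed (limma adjusted p = 0.0490) and skr-9 did not (0.056). With log2 ratios limited to 5 neither passed, at limma adjusted p of 0.0890 and 0.0941. With the arrays quantile normalized, skr-8 and skr-9 had limma adjusted p of 0.0382 and 0.0447, and after correction for gene span 0.0331 and 0.0386. skr-8 and skr-9 are neighbouring genes of the same span, 585 base pairs, and whether their probes bind each other's RNA was not tested. Nor was it tested for skr-12 and skr-13, also of equal span (519 base pairs), which flank them on chromosome IV.

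The other low adaptors were spread over chromosomes II, IV, V, X and I. skr-17 had log2 ratios of -2.63 and -1.12 on arrays 1 and 2. skr-19, read by 2 probes, had -1.53 and -1.73, with each of its probe values between -1.34 and -2.13. skr-2 had -1.43 and -1.74. These genes were at least 2-fold below the reference on both arrays, as was skr-13 at -1.26 and -1.55. skr-2 and its neighbour skr-1 on chromosome I encode the adaptors known to act with CUL-1 in embryos and in restraining cell division. skr-1 had -0.07 and -1.38, so that it was near the reference on array 1 and below it on array 2. skr-5 had -1.91 and -0.64, and on array 2 its 2 probes stood at 0.36 and -1.63. skr-15 had -1.67 and -0.74, and skr-11, which RefSeq lists as a pseudogene, had -1.96 and -0.60. The remaining gene below 0 on both arrays was skr-12, at -1.08 and -0.09.

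A smaller set of adaptors lay at or above the reference. skr-3, which binds CUL-1 and also works with CUL-6, had log2 ratios of 1.45 and 1.32, the closest agreement between arrays of any skr gene (mean 1.38 ± 0.09, 2.61-fold, limma adjusted p = 0.164). skr-16 had 0.67 and 0.93. skr-6, read by 2 probes, had 0.36 and 0.77. These 3 were the skr genes above 0 on both arrays. skr-20 had -0.43 and 0.48 and skr-21 had -0.38 and 0.28, so their sign differed between arrays. The adaptors thus had means between -2.38 and 1.38, and 11 of 16 were below 0 on both arrays, or 68.8%, against 30.8% of all genes. Of the 8 adaptors known to bind CUL-1, 5 were measured, with a median mean ratio of -1.58, and 4 of the 5 were below 0 on both arrays.

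Position on the chromosome went with the value for some adaptors and not for others. skr-13, skr-9, skr-8 and skr-12 follow each other on chromosome IV in the RefSeq annotation (WBcel235), and all had means below 0, between -2.38 and -0.58. skr-20, skr-19 and skr-21 follow each other on chromosome X. There skr-19 stood at a mean of -1.63 ± 0.14, while skr-20 was at 0.02 ± 0.64 and skr-21 at -0.05 ± 0.47.

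**Figure D2:**
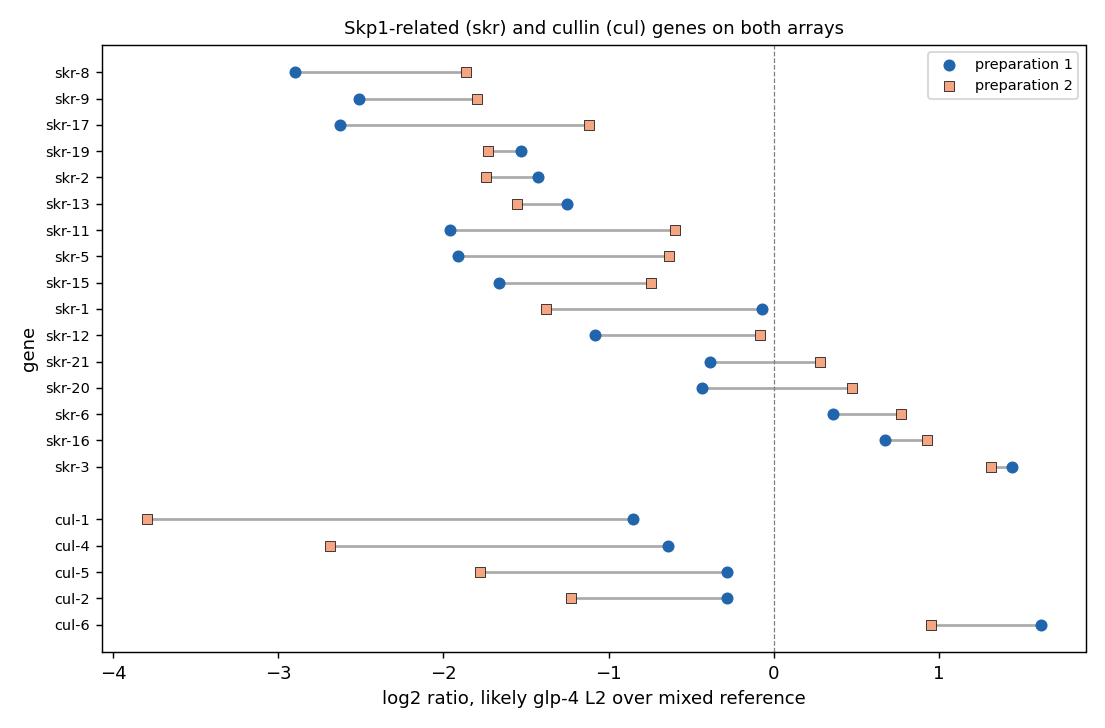
Log2 ratio (x axis) of each skr and cul gene (rows, sorted by mean within a prefix), with a circle for array 1, a square for array 2 and a line between them. All 5 cul genes, cul-6 included, are lower on array 2 than on array 1, as are 5 of the 16 skr genes.

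Of the cullins, cul-6 was above the reference and the other 4 below it, on both arrays. cul-1, the scaffold of SCF ligases, known in worms for its role in cell cycle exit, had log2 ratios of -0.85 and -3.80 on the arrays 1 and 2 (mean -2.33 ± 2.08, limma adjusted p = 0.197). cul-4, which is known to prevent re-replication of DNA, had -0.64 and -2.69 (mean -1.66 ± 1.45). cul-5, which pairs with the RING protein RBX-2, had -0.28 and -1.78 (mean -1.03 ± 1.06). cul-2, which acts in meiosis, polarity of the embryo and germ cell division, had -0.28 and -1.23 (mean -0.76 ± 0.67). In these 4 genes the SD was about as large as the mean. In each of them the preparation 2 value lay much further below the reference than the preparation 1 value. cul-6, a cullin of the worm's response to intracellular pathogens, had 1.62 and 0.95 (mean 1.28 ± 0.47, 2.44-fold, limma adjusted p = 0.200). No value is given here for cul-3.

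Cullin genes are long, with a median gene span of 3893 base pairs against 2139 for all genes, and ratios varied with gene span. After a correction for gene span on each array, the medians of the cul genes were -0.35 and -1.54, and cul-1 stood at -0.92 and -3.54. The gap between arrays was thus narrower but still there. The skr genes are short, with a median of 570 base pairs. After the same correction their medians were -1.19 and -1.05, closer to each other than before. Single skr genes went both ways. The SD between arrays fell for skr-8 (0.73 to 0.34) and skr-9 (0.51 to 0.12). It rose for skr-19 (0.14 to 0.56) and skr-3 (0.09 to 0.42).

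The fbxa genes encode F-box proteins with a domain shared with FOG-2, the F-box protein that lets hermaphrodites make sperm. They spread over both sides of the reference. Their means ran between -2.94 and 2.90, with the middle 50% between -0.16 and 0.83. The upper end, fbxa-214, was high on array 2 alone (0.28 and 5.53). A total of 69 of 131, or 52.7%, were above 0 on both arrays, against 37% of all genes, and 31, or 23.7%, were below. The share above 0 varied by chromosome. On chromosome V it was 50.8% of the fbxa genes (33 of 65), against 47.6% of all genes there. It was 70.4% (19 of 27) against 27.8% on III and 77.8% (7 of 9) against 40.6% on X. On I, II and IV it was 25% (2 of 8), 36.8% (7 of 19) and 33.3% (1 of 3), against 29.4%, 35.4% and 31.9%. Across the 131 fbxa genes the arrays had a Pearson r of 0.56 and a Spearman rho of 0.57, as a description of genes that share 2 hybridisations and the reference.

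fbxa-206 on chromosome V had log2 ratios of -2.76 and -3.13, a mean of -2.94 ± 0.27, or 7.70-fold lower in glp-4 L2 (limma adjusted p = 0.0400). fbxa-215 on chromosome IV had -3.43 and -2.39, a mean of -2.91 ± 0.73, or 7.50-fold lower (limma adjusted p = 0.0492). fbxa-72 on chromosome V had 2.71 and 2.41, a mean of 2.56 ± 0.21, or 5.88-fold higher (limma adjusted p = 0.0492). All 3 calls sat close to the threshold. With log2 ratios limited to 5 none passed, at limma adjusted p of 0.0543, 0.0642 and 0.0630, and with a probe-level test or a robust prior only fbxa-206 passed.

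Next among the low fbxa genes was fbxa-164 on chromosome II, with -3.04 and -2.02 (mean -2.53 ± 0.72, limma adjusted p = 0.0636). It passed with centred arrays (limma adjusted p = 0.0415), with quantile normalization (0.0296) and with correction for gene span (0.0328). With log2 ratios limited to 5 it did not pass (limma adjusted p = 0.0797). fbxa-24 had -1.97 and -1.46. fbxa-114 had -1.62 and -1.01, and fbxa-161, a pseudogene, had -1.15 and -1.28. These were the 6 fbxa genes at least 2-fold below the reference on both arrays. fbxa-162, also a pseudogene, had -1.70 and -0.71, and fbxa-69 had -1.45 and -0.94.

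On the high side, fbxa-99 had 2.01 and 1.48, fbxa-141 had 1.81 and 1.5, and fbxa-190 had 1.02 and 1.98. fbxa-115 had 0.90 and 1.95, and fbxa-73 had 0.67 and 2.74. None passed the test (limma adjusted p between 0.115 and 0.220). With each array centred on its median, 3 rather than 7 fbxa genes were at least 2-fold higher on both arrays. fbxa-158, an F-box gene known to work with CUL-6, had -0.08 and -0.19 and so lay at the reference. It was picked out after the values of cul-6 and skr-3 were seen, together with the other known parts of that ligase, of which skr-5 was below 0 on both arrays.

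The fbxb genes, whose F-box is followed by another type of F-box-associated domain, stayed closest to the reference. Of 84, 71 lay within 1 log2 unit of it on both arrays, or 84.5%, against 55% of fbxa genes, 70% of fbxc genes and 54% of all genes. No fbxb gene had a mean below -0.73. The lowest were fbxb-9 (-0.55 and -0.91 on the arrays 1 and 2), fbxb-15 (-0.82 and -0.58) and fbxb-119 (-0.92 and -0.42), followed by fbxb-118 and fbxb-100 with means of -0.63 and -0.58. fbxb-86 and fbxb-44, whose sign differed between arrays, came next with means of -0.47 and -0.46, and then fbxb-54 with -0.45, below 0 on both arrays. The middle 50% of the fbxb means spanned 0.63 log2 units, against 1.07 for all genes. The arrays differed in where the genes centred, with 33 of 84 above 0 on array 1 and 61 on array 2. The fbxb medians corrected for gene span were -0.11 and 0.21. The Pearson r between arrays was 0.22 (Spearman rho 0.26), over genes with a narrow range.

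At the upper end of the fbxb genes, fbxb-14 had 0.85 and 3.93, fbxb-47 had 0.38 and 2.58, and fbxb-3 had 1.67 and 0.12. fbxb-101 had 0.50 and 1.03, and fbxb-115 had 0.64 and 0.76. fbxb-93 had 0.02 and 1.38. fbxb-14, fbxb-47, fbxb-3 and fbxb-93 thus stood high on 1 of the arrays and nearer the reference on the other, and the limma adjusted p of all 6 ran between 0.199 and 0.467.

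Of 40 fbxc genes, 28 lay within 1 log2 unit of the reference on both arrays, and 3, or 7.5%, were at least 2-fold below it on both, close to the 7.35% of all genes. None passed the test on the values as deposited. fbxc-44 had -2.17 and -2.24, a mean of -2.21 ± 0.05, or 4.62-fold lower (limma adjusted p = 0.0636). It passed with centred arrays (limma adjusted p = 0.0421), quantile normalization (0.0314) and correction for gene span (0.0371). With log2 ratios limited to 5 it did not pass (limma adjusted p = 0.0795). fbxc-50 had -2.01 and -1.41, and fbxc-47 had -1.49 and -1.46. These 3 were the fbxc genes at least 2-fold below the reference on both arrays, and fbxc-44 and fbxc-47 differed between arrays by under 0.1 log2 units. A gap followed, since the next means were those of fbxc-32 (-0.71), fbxc-36 (-0.65) and fbxc-20 (-0.54). Above the reference were fbxc-58 (1.44 and 1.00), fbxc-16, a pseudogene (1.52 and 0.58), fbxc-38, also a pseudogene (0.34 and 1.45), fbxc-49 (0.05 and 1.65) and fbxc-53 (0.66 and 0.95). The fbxc median on array 1 was 0.04 as deposited and below 0 with centred arrays (-0.06) and with quantile normalization (-0.01).

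Several of the largest F-box ratios were seen on array 2 alone. fbxa-214 had 0.28 on array 1 and 5.53 on array 2. fbxb-105 had -0.14 and 5.54, and fbxa-205, a pseudogene, had 0.02 and 4.51. fbxc-35, another pseudogene, had 0.77 and 4.34. With fbxb-14 these were the 5 members whose arrays differed by over 3 log2 units, 1.96% of the F-box genes, against 1.69% of all genes. Each rests on a single probe, the higher value was on array 2 in all 5, and none passed the test (limma adjusted p of 0.199 to 0.320).

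**Figure D3:**
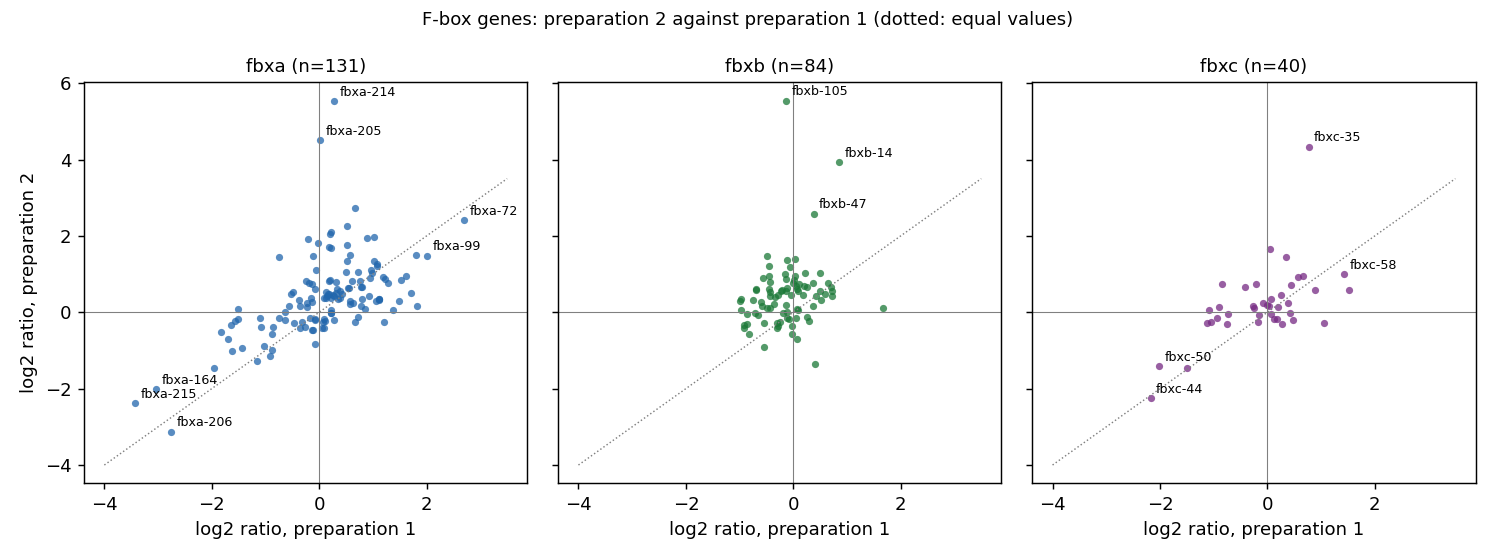
Log2 ratio on array 2 (y axis) against array 1 (x axis) for fbxa, fbxb and fbxc genes, 1 point a gene, with a dotted line of equal values and some genes named. fbxa-206, fbxa-215, fbxc-44 and fbxa-72 lie near the dotted line, while fbxa-214, fbxb-105, fbxa-205 and fbxc-35 stand high on the y axis only.

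F-box genes cluster along the chromosomes, which the choice of genes by name did not use. Of the fbxa genes, 49.6% are on chromosome V and 21.1% on III. Chromosome II holds 52.4% of the fbxb and 77.5% of the fbxc genes. Members were joined into a run where no more than 5 positions in the order of protein-coding genes and pseudogenes separated neighbours, which gave 18 runs of at least 4 members. In the run of 9 fbxa genes on chromosome II that starts with fbxa-161, the means of fbxa-161, fbxa-162, fbxa-163, fbxa-164 and fbxa-165 were all below 0 (-1.21, -1.21, -0.85, -2.53 and -0.89), followed by fbxa-166 at 1.29. The run was lower on array 1 (median -1.15) than on array 2 (median -0.19), where fbxa-163 and fbxa-165 stood at -0.19 and -0.22. The last 3 genes of that run, fbxa-158, fbxa-159 and fbxa-160, lay between -0.13 and 0.32. In contrast, a run of 10 fbxa genes on chromosome III had a median of 0.48, and a run of 7 there had 0.43, with all 7 means above 0. In a run of 6 on chromosome V that includes fbxa-205 the median was 0.69, with 0.33 on array 1 and 0.93 on array 2. For comparison, the median mean ratio of all genes was 0.03 on chromosome II, -0.13 on III and 0.26 on V. The run of 19 members on chromosome II, made up of fbxa-200 and 18 fbxc genes, had a median of 0.01. Directly adjacent fbxa genes differed in mean ratio by a median of 0.41 over 37 pairs, against 0.75 over all 8515 pairs of fbxa genes. The medians were 0.32 and 0.43 for fbxb genes, and 0.69 and 0.64 for fbxc genes. Adjacent genes are often close duplicates whose probes may bind each other's RNA, which was not tested.

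**Figure D4:**
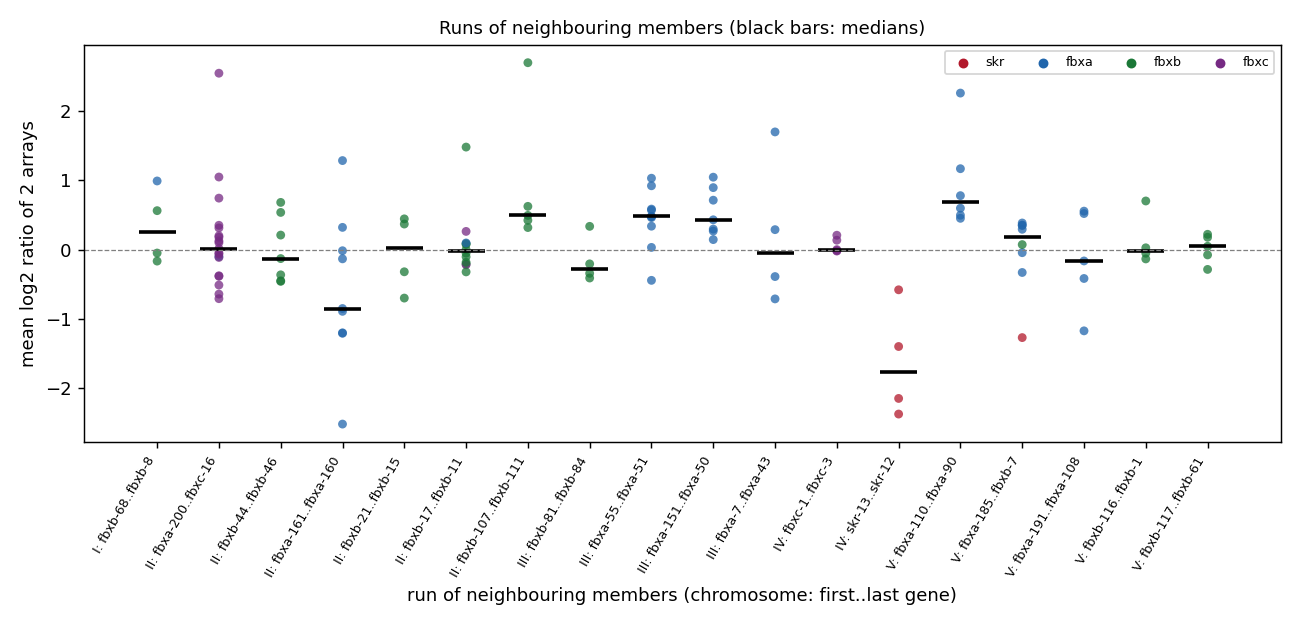
Mean log2 ratio of the 2 arrays (y axis) for members in 18 runs of neighbouring genes (x axis, by chromosome and first and last gene), coloured by prefix, with black bars at the run medians. The run of skr genes on chromosome IV has a median of -1.78 and the fbxa run that starts with fbxa-161 one of -0.85, while the other run medians lie between -0.28 and 0.69. On the arrays 1 and 2 the medians of that fbxa run are -1.15 and -0.19.

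RefSeq lists some of the F-box members as pseudogenes. The 25 fbxa pseudogenes had medians of -0.06 and 0.46 on the arrays 1 and 2, against 0.22 and 0.34 for 106 protein-coding fbxa genes. The 7 fbxc pseudogenes had 0.45 and 0.71, against -0.09 and 0.12 for 33 protein-coding fbxc genes. The means of fbxa pseudogenes ran between -1.21 and 2.26, and those of protein-coding fbxa genes between -2.94 and 2.90. Both upper ends, fbxa-205 and fbxa-214, were high on array 2 alone. Of the pseudogenes in fbxa, fbxa-161 alone was 2-fold or more away from the reference on each array.

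Other genes of the ligase pathway were read as lists, which were chosen with earlier results of these data known. F-box genes outside the fbx names had a median mean ratio of -1.50 over 11 genes, with 9 below 0 on both arrays, 0 above, and 4 at least 2-fold lower on both. Over all genes the shares were 30.8% below 0, 37% above 0 and 7.35% at least 2-fold lower. Among them pes-2.1, an early embryo gene with an F-box, had -3.0 and -2.55 and passed as lower (mean -2.77 ± 0.32, limma adjusted p = 0.0448), though not with log2 ratios limited to 5 (0.0587). fog-2 had -2.52 and -2.0, pes-2.2 had -3.47 and -1.97, and skpt-1, the relative of the vertebrate cell cycle gene Skp2, had -1.79 and -1.82. The conserved F-box genes lin-23 and sel-10, known for limiting cell division and Notch signalling, had -0.99 and -2.77, and -0.21 and -2.79. dre-1, a larval timing gene, had 0.51 and -1.86. As for the cullins, these 3 were lower on array 2, while pes-2.1, pes-2.2, fog-2, prom-1 and mfb-1 of the same list were higher there. Of all 14777 genes, 7351 were lower on array 2.

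Of the CUL-2 adaptors and substrate receptors, 8 were measured and 1 passed. It was zif-1, the receptor that removes germ plasm proteins in somatic cells of the embryo, at -2.68 and -2.75 (mean -2.72 ± 0.05, 6.57-fold lower, limma adjusted p = 0.0437, and 0.0587 with log2 ratios limited to 5). zyg-11, which acts in meiosis, had -1.35 and -3.0, and lrr-1, needed for germ cell division, had -1.93 and -1.84. By contrast the shared elongin B gene elb-1 had 0.64 and 0.44, and vhl-1, the receptor for the hypoxia factor HIF-1, had 0.57 and 0.86. Of the 8 genes, 4 lay below 0 and 3 above 0 on both arrays, against 30.8% and 37% of all genes. The list medians differed in sign between the arrays 1 and 2, at 0.25 and -1.37.

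None of the remaining lists had a gene past the limma test. At an unadjusted limma p under 0.05 they held 2 of 7 CUL-3 adaptors, 2 of 5 CUL-4 adaptors, 1 of 7 RING and neddylation genes, 4 of 11 genes of the anaphase-promoting complex and 2 of 5 ubiquitin activation genes as lower, and 1 gene of the anaphase-promoting complex, gfi-3, as higher. The shares over all genes were 10.9% as lower and 7.78% as higher. The CUL-3 adaptors had medians of -0.19 and -0.97 on the arrays 1 and 2. Their farthest genes were bath-42 (mean -2.22 ± 1.54) and wdr-23 (-1.46 ± 2.17). wdr-23 encodes no BTB protein but a receptor known to act with DDB-1 and CUL-4. Without it the CUL-3 medians were -0.54 and -0.91 over 6 genes, and with it the CUL-4 medians were -0.04 and -1.52 over 6 genes, lists changed after their values were seen. The CUL-4 adaptors had medians of -0.14 and -1.51, led by cdt-2 (-1.54 ± 0.57) and ddb-1 (-1.20 ± 0.39), which work with CUL-4 in control of DNA replication. RING and neddylation genes had -0.50 and -0.79, with cand-1, an exchange factor for cullins, at -1.58 ± 0.48 and ula-1 at -0.91 ± 1.28. The anaphase-promoting complex had -0.54 and -0.99, with fzy-1 at -2.01 ± 1.05 and apc-10 at -1.72 ± 0.47. For ubiquitin activation and conjugation, 5 of 26 listed genes were measured, with medians of -0.83 and -1.30. They were led by uba-1 (-1.31 ± 0.68) and uba-2 (-1.28 ± 0.97), and the others were ubq-1, ubq-2 and let-70. None of the ubc genes of this list was measured. uba-2 encodes a subunit of the enzyme that activates SUMO, a relative of ubiquitin. Without it, a change also made after the values were seen, the medians were -0.32 and -1.42 over 4 genes, of which 1 was lower at an unadjusted limma p under 0.05. The COP9 signalosome, which removes NEDD8 from cullins, had 3 of 8 genes measured, csn-5 (-0.46 ± 0.13), cif-1 (0.28 ± 1.16) and csn-2 (0.25 ± 0.63), none of them at an unadjusted limma p under 0.05. Its medians were -0.20 and -0.37 on the arrays 1 and 2.

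**Figure D5:**
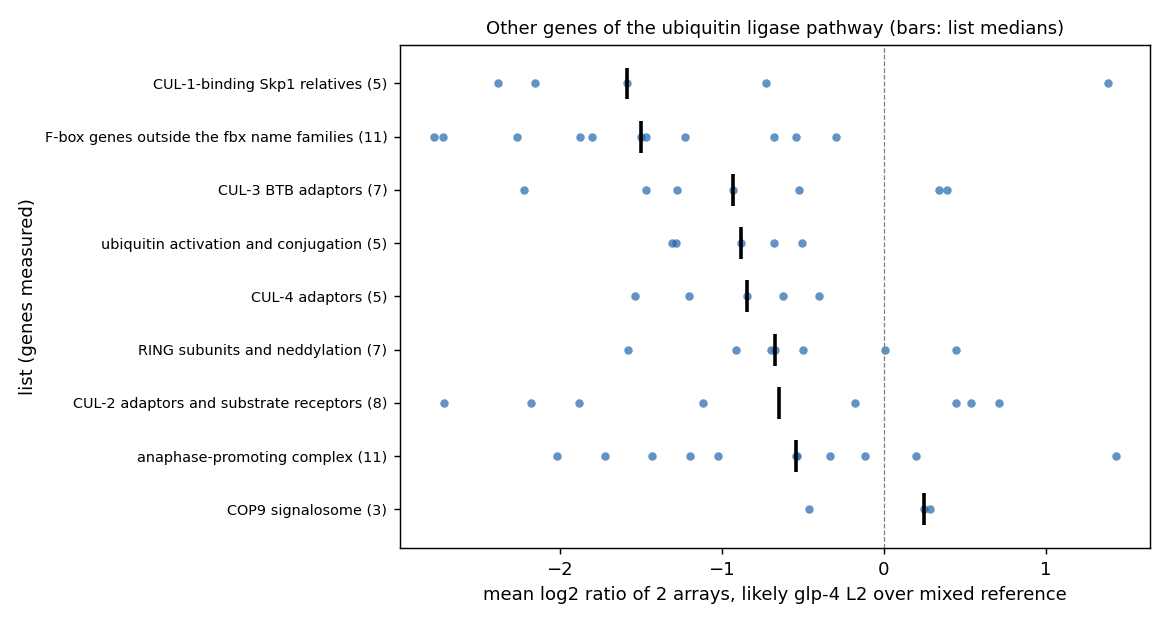
Mean log2 ratio of the 2 arrays (x axis) for genes of 9 lists of the ubiquitin ligase pathway (rows, number of genes measured in brackets), 1 point a gene, with black bars at the list medians. The medians of these means lie between -1.58 and -0.54 except for the COP9 signalosome at 0.25. On the arrays 1 and 2, however, the COP9 medians were -0.20 and -0.37, and the CUL-2 medians were 0.25 and -1.37. The CUL-3 row includes wdr-23 and the ubiquitin activation row includes uba-2.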

How the data were processed

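For each probe and array the authors deposited a log2 ratio of the channels. The sources used here do not give dyes, background correction or scaling. The log base rests on the values themselves. Raising 2 to them gave whole steps of 0.001, to within 0.002 of a step, in 99.1% of cases on array 1 and 98.8% on array 2. For the inverse ratio and other bases the share was at most 1.14%. The arrays had 21472 and 21202 values with medians of 0.04 and 0.01, and a Pearson r of 0.53. Of 21632 probes, 16450 had 1 gene in GEO's platform annotation, 247 several and 4935 none. Names were updated through RefSeq (WBcel235) by Entrez ID for 16360 probes and by accession or symbol for the other 90. Values of a gene's probes were averaged within each array. Over 22 members with several probes measured on both arrays, the median SD between probes was 0.13 on array 1 and 0.35 on array 2.

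Values were used without further scaling. A moderated test of each gene's mean against 0 used limma 3.58.1 and R 4.3.3 (intercept only, eBayes prior of 4.5 degrees of freedom beside 1 residual) and Benjamini-Hochberg adjustment over 14777 genes, at 0.05. The reference is 1 RNA, so its own spread is left out, and without swapped dyes a probe's dye bias remains. The script was tested on simulated data. Named were all skr and cul genes, fbx genes past the test, the 8 fbxa, 6 fbxb and 6 fbxc genes with the largest and as many with the smallest means of equal sign, and, of each other list, genes past the test or else the 2 farthest from 0. Genes beyond that rule were chosen after their values were seen. Members and lists were chosen with earlier results of these data known. Python 3.11.15 with pandas 2.3.3 made the summaries. Alternatives were centring, quantile normalization, a limit on ratios, probe-level tests, a lowess correction (fraction 0.3) for gene span, current names, a robust prior and single arrays.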

Additional observations from a re-analysis of the deposited data

How the results depend on the processing

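Counts of calls depended on the scaling. Of the members, 2 were lower and 1 higher as deposited. Centring gave 5 lower, quantile normalization 6, gene span correction 6, with 1 higher in each, and the limit on log2 ratios 0 in either direction. The probe-level test and the robust prior gave 1 lower and 0 higher. Over all genes, calls numbered 221 lower and 54 higher as deposited, 377 and 90 centred, 447 and 158 with quantile normalization, 119 and 25 with limited ratios, and 381 and 113 with gene span correction. Centring lowered the median of all genes by 0.10 on array 1 and by 0.02 on array 2. It left 4 of 8 members at least 2-fold higher on both arrays. On single arrays, 22 to 32 members were at least 2-fold lower and 27 to 43 higher, 97 to 137 lay below 0 and 139 to 179 above. The skr median was -1.34 to -0.69 and the fbxa median 0.20 to 0.37. After gene span correction the fbxc median was -0.002. The mean of skr-20 turned to -0.0404 centred, -0.013 with quantile normalization and -0.0708 with gene span correction. Choosing members by current names changed none of these values. The cause of these shifts was not tested. No paired analysis was possible because there is 1 group. Signal over background is unknown, which limits every ratio near the reference.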

Other observations

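Some probes were assigned to several members at once and entered no comparison. The probe of fbxa-94 and fbxa-95 had log2 ratios of 0.75 and 0.33 on the arrays 1 and 2. The probe of fbxa-118 and fbxa-194 had 0.20 and 0.81. The probe of fbxc-21 and fbxc-22 had -0.37 and 0.14, and the probe of fbxc-1, fbxc-2, fbxc-4 and fbxc-8 had -0.37 and 0.03. All 4 lay within 1 log2 unit of the reference on both arrays, where 175 of the 276 members, or 63.4%, also lay.

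Duplicate probes of 1 gene did not always agree. One probe of fbxa-154 had 0.72 and 1.42 on the arrays 1 and 2, and the other had -0.46 and -0.35. The probes of fbxa-196 were close on array 1 (0.14 and 0.21) and apart on array 2 (0.70 and 2.72). fbxa-154 and fbxa-196 were chosen after their values were seen.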
